A study of Rattus norvegicus with 18 samples.

Results

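The genes described here encode the proteins of the cytosolic ribosome. They were chosen by symbol from the platform annotation as Rpl or Rps followed by a number, with Rplp0, Rplp1, Rplp2 and Rpsa, without the S6 kinases and without symbols that mark a pseudogene or a -like copy. Among the probe sets that the annotation gives to 1 gene only, the brightest on average stood for each gene. This gave 43 genes of the 14217 that have such a probe set, 29 of the large subunit and 14 of the small subunit. Another 33 ribosomal protein probe sets, which carry 30 such names, are shared in the annotation with pseudogenes or copies and were kept apart, so 27 ribosomal protein genes are not among the 43.

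The ribosome is built from rRNA and a fixed set of proteins, most of them present once per particle, so cells make these proteins in matched amounts. Their mRNAs are among the most abundant in growing cells, and in mammals they start with a C followed by a run of pyrimidines, the terminal oligopyrimidine or TOP tract, through which mTOR controls their translation. In stress of the endoplasmic reticulum the kinase PERK lowers translation initiation in general, and in the insulin-producing beta-cell ribosomes bound to the endoplasmic reticulum carry the synthesis of preproinsulin.

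The cells were INS-1 rat insulinoma cells, a beta-cell line, of the single clone #4S2. In this clone a tetracycline-responsive promoter drives Ins2 (C96Y)-EGFP, a mutant insulin that misfolds, joined to a green fluorescent protein. Cultures were given 2 µg/ml doxycycline, which switches the transgene on, over 24 h, over 48 h or over 5 days. The control cultures of each time carried the same transgene and had no doxycycline. Each of the 6 groups had 3 arrays, 1 from each of 3 independent experiments, so the p-values below measure the spread between experiments in 1 clone.

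TOP tracts are shown first because they are the sequence feature for which mRNAs of this family are known, though in the table used here most of the genes lack one at the annotated start. A start sequence was found in the RefSeq table of the rat assembly GRCr8 for 38 of the 43 genes, 36 by gene number and 2 by symbol. Each line gives 30 bases in the direction of the transcript, 15 before the annotated start and 15 from it on, and capitals mark a C at the start followed by at least 4 pyrimidines, to the end of the run. Rpl14, Rpl22, Rpl35 and Rpl37a are shown as genes with the tract and ratios near the top of the family at 48 h, Rpl19 and Rplp0 as genes with the tract and ratios near 0, and Rpl12 and Rpl4 as genes with high ratios and no such run at the annotated start.
Rpl14: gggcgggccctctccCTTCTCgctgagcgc
Rpl22: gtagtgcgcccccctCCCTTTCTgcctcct
Rpl35: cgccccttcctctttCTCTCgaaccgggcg
Rpl37a: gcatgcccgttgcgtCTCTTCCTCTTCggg
Rpl19: cgcgaccagcaagctCTTTCCTTTCgctgc
Rplp0: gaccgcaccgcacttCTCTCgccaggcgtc
Rpl12: ggagcaacatccgtcttttcggctttcggt
Rpl4: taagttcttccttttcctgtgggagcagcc

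These windows lie in GRCr8 at chr8:129163605-129163634 on the plus strand for Rpl14, chr5:168117946-168117975 on the plus strand for Rpl22, chr3:43165907-43165936 on the minus strand for Rpl35 and chr9:81748076-81748105 on the plus strand for Rpl37a. The others are at chr10:83519049-83519078 on the plus strand for Rpl19, chr12:46718376-46718405 on the minus strand for Rplp0, chr3:36661925-36661954 on the plus strand for Rpl12 and chr8:73566462-73566491 on the plus strand for Rpl4. Searched on the transcript strand only, 12 of the 38 genes (31.6%) had the tract at the annotated start, against 2.63% of the 33469 starts in the table. A looser search, for at least 8 pyrimidines in a row within 20 bases of the start, matched 27 of the 38 genes (71.1%) and 15.5% of all starts. In Rpl12 and Rpl4 a pyrimidine run spans the annotated start, with no C at the start followed by 4 pyrimidines. A match describes these letters and is not a measured site.

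The beta-cell label was checked against marker genes. All 9 beta-cell markers found on the array, of 11 listed, were in the upper 50 percent of mean signal, among them Ins1, Iapp and Slc2a2, and their summed signal was 81507 to 111106 per array. Markers of pancreatic acinar cells and of leukocytes were all in the lower 50 percent, with sums of 65.4 to 153 and 26.9 to 101. Of the fibroblast list only Thy1 was in the upper part, with a sum of 1195 to 2159, and of the other islet hormones only Gcg, with a sum of 95.6 to 2444. Arrays of 5 days stood apart. The doxycycline array of experiment 2 had a GAPDH 3′/5′ signal ratio of 2.91, a measure of RNA breakdown, against 1.05 to 1.19 on the other 17. Sdf2l1, an endoplasmic reticulum chaperone component induced by misfolded protein, had log2 ratios of doxycycline to control of 2.28, 1.80 and 1.90 in the 3 experiments of 24 h and 1.79, 2.01 and 1.76 in those of 48 h. At 5 days it had -2.91, 3.18 and 1.66, so in experiment 1 the array labelled control was the higher one. Ddit3, the stress factor CHOP, had -1.31, -0.81 and 1.25 there, and its target Trib3 had -1.43, -2.77 and 2.94, while in all 3 experiments of both earlier times these genes were higher with doxycycline. At 5 days the array labelled control was thus the higher one for all 3 genes in experiment 1 and for Ddit3 and Trib3 in experiment 2. Groups at 5 days are therefore called as labelled. Results are also given without experiment 1 and without experiment 2, each left out alone, and none with both left out. Labels were exchanged for experiment 1 only.

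Most of the family was at the top of the measured range. The probe sets of 38 genes lay in the top 2% of mean signal, at percentile 98.9 or above, and their signals on single arrays ran from 7159 to 25131 after quantile normalization, where the highest signal of any probe set was 31590. The 3 highest mean signals were those of Rpl26, at 23870, Rps23, at 23333, and Rpl7a, at 22818. Levels of different probe sets also depend on their probes, so no order of abundance is read from them. Whether signals this close to the upper end of the scale still follow the amount of RNA in proportion was not tested. The other 5 probe sets were dim. Those of Rps4y2, Rpl30 and Rps13 averaged 35.3, 47.3 and 75.9 and were under the filter on low signal, and those of Rpl28 and Rpl39 averaged 205 and 234. For Rpl28, Rpl30 and Rps13 the array also has a probe set shared with copies, so a dim reading there is one of a probe set and not of the gene. In all, 40 of the 43 genes were tested.

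No ribosomal protein gene passed the test at any time. With limma and Benjamini-Hochberg adjustment over all 15521 probe sets tested, the smallest adjusted p among the 40 genes was 0.436 (24 h, Rpl4), 0.131 (48 h, Rpl14) and 0.935 (5 days). Of all probe sets, 0.193% rose and 0.0129% fell with doxycycline at 24 h. The shares were 2.33% and 1.19% at 48 h, then 0% and 0% at 5 days. At an unadjusted p under 0.05 0 genes were higher and 0 lower at 24 h, beside 7.75% and 6.94% of all probe sets. At 48 h 3 were higher and 0 lower, beside 12.2% and 12.5%, and at 5 days 0 and 0, beside 1.11% and 1.37%. The arrays hold signals relative to the rest of the same array, and fewer cells of a type and less RNA per cell cannot be told apart in them.

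After quantile normalization the intervals of the tested genes were narrow at 24 h and 48 h. The 95% interval of the doxycycline effect lay within a 1.5-fold difference either way for 39 of the 40 tested genes at 24 h and 39 at 48 h, the exception being the dim Rpl39 at both times, and for 35 at 5 days. The same held for 90% (24 h), 80.1% (48 h) and 30.2% (5 days) of all probe sets. The distance from the estimate to the end of the interval had a median of 0.18 log2 units at 24 h and 48 h and 0.42 at 5 days. The median absolute log2 ratio of the tested genes was 0.047, 0.056 and 0.055 at the 3 times, where that of all probe sets was 0.095, 0.134 and 0.164. These bounds come from probe sets near the top of the signal range.

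**Figure D1:**
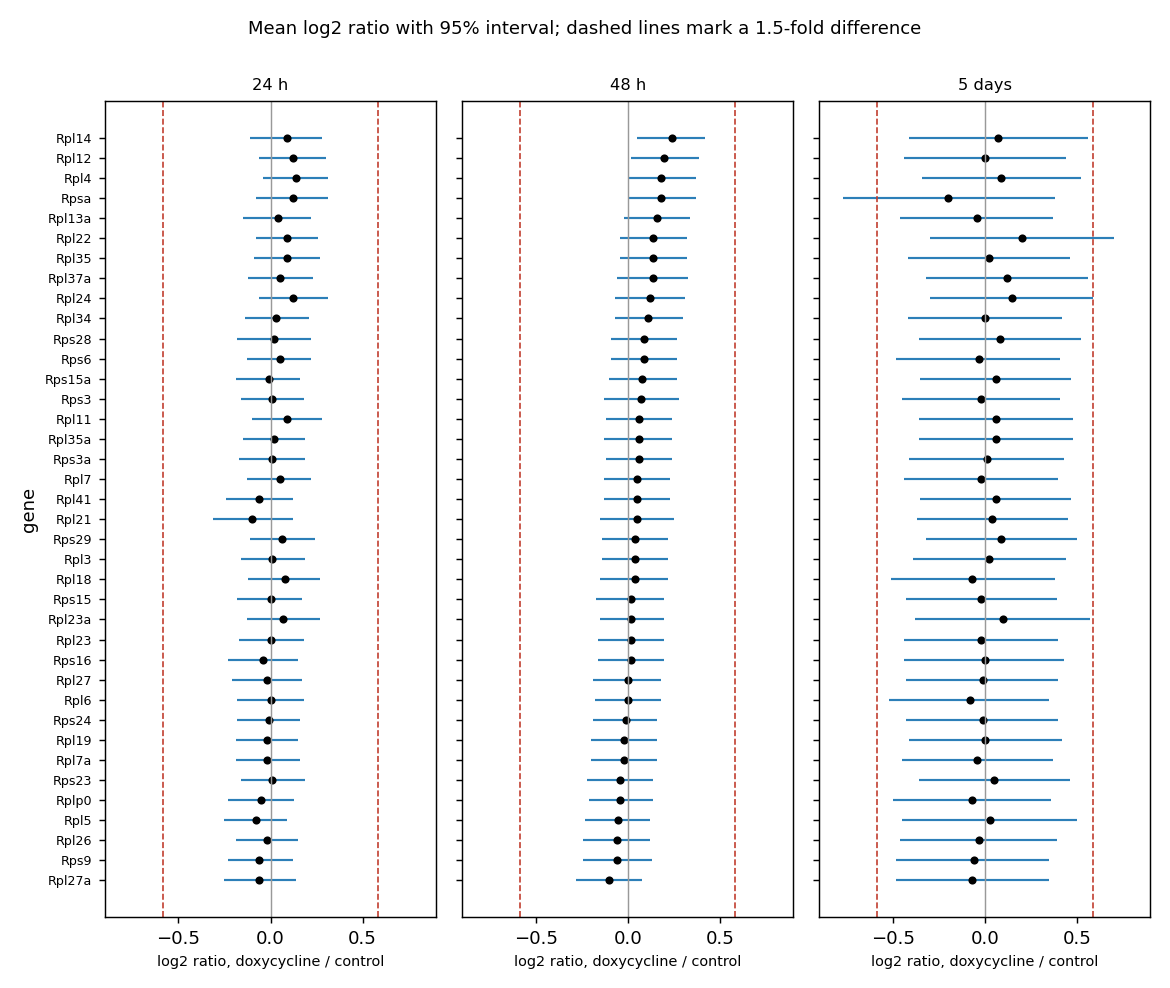
Mean log2 ratio of doxycycline to control (x axis) for the 38 ribosomal protein genes of high signal (y axis, ordered by the 48 h ratio) in 1 panel per time, with points for the mean of 3 experiments, bars for the 95% interval of limma's fit and dashed lines at a 1.5-fold difference. All 38 intervals lie inside the dashed lines at 24 h and at 48 h, and 35 do at 5 days, where the intervals are wider.

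After quantile normalization the median of the family stayed within a few percent of control, though median centring gave 0.193 at 5 days. The quantile-normalized median log2 ratio of the 43 genes was 0.010 (24 h), 0.053 (48 h) and 0.001 (5 days), beside -0.008, -0.011 and 0.029 for all probe sets. By experiment the 24 h medians were 0, 0.010 and 0.017. Those of 48 h were 0.052, 0.057 and 0.032, and those of 5 days -0.047, 0.037 and 0.077. A ratio of exactly 0, found in 8, 6 and 2 of 129 values per time, means that a probe set held the same rank on both arrays. The 43 probe sets together held 2.77 ± 0.24% of the summed deposited signal with doxycycline and 2.80 ± 0.15% in control at 24 h (SD, n = 3 each), 3.33 ± 0.34% with doxycycline and 3.27 ± 0.12% in control after 48 h, 3.06 ± 0.27% with doxycycline and 3.18 ± 0.31% in control after 5 days. The mean differences, doxycycline minus control, of -0.02, 0.06 and -0.12 percentage points were each smaller than the SD of either group.

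Direction within the family was most even at 48 h. There 22 of the 43 genes were higher with doxycycline in all 3 experiments and 4 were lower in all 3, where 22.8% of all probe sets were higher and 25.4% lower. At 24 h the counts were 10 higher and 7 lower, beside 17.8% and 20.3%, and at 5 days 6 and 3, beside 13.6% and 9.84%. Counts here are over all 43 genes, while the shares leave out probe sets under the filter on low signal. Over the 40 tested genes the counts were 10 and 5 (24 h), 21 and 4 (48 h) and 5 and 2 (5 days). The 48 h count over the 43 genes rested on the scaling. With the deposited scaling and no quantile normalization it was 7 higher and 1 lower, with medians by experiment of -0.109, 0.039 and 0.130, beside 21.8% and 26.1% of all probe sets. With each array centred on its median it was 11 and 1, beside 22.7% and 23.1%. At 24 h the deposited scaling gave 2 higher and 4 lower, beside 17.5% and 20.6%, and at 5 days 1 and 9, beside 11.5% and 12.6%. The median ratio of the family at 48 h was above that of all probe sets by 0.064 after quantile normalization and by 0.044 with the deposited scaling. Median centring shifts all probe sets of an array alike, so it gave the same 0.044 by construction. The deposited medians by experiment lay on both sides of 0.

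**Figure D2:**
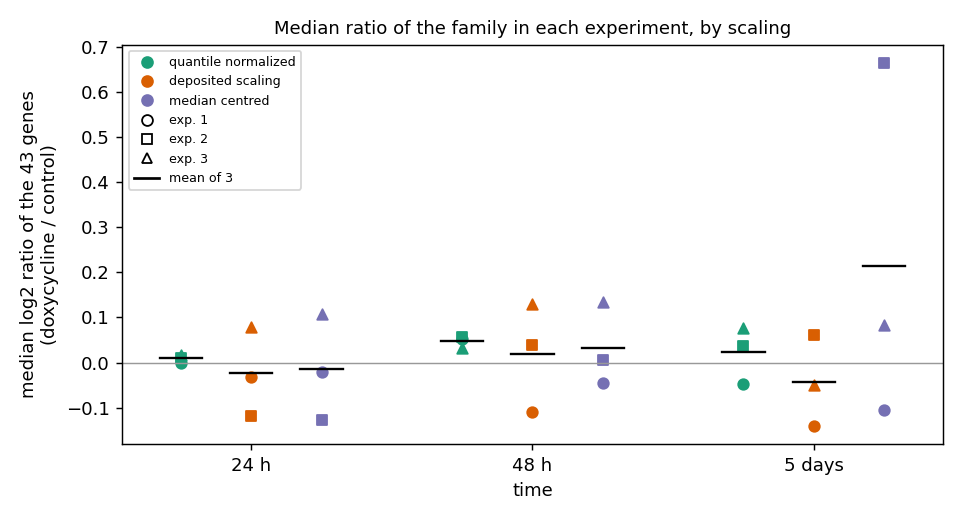
Median log2 ratio of doxycycline to control over the 43 genes (y axis) in each experiment of the 3 times (x axis), under 3 scalings of the same arrays, with the mean of the 3 medians as a bar. Quantile-normalized medians at 48 h lie between 0.032 and 0.057, while the deposited scaling spreads them from -0.109 to 0.130, and median centring puts experiment 2 at 5 days at 0.665.

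The subunits gave like values. Large subunit genes had median ratios of 0.014 (24 h), 0.053 (48 h) and 0.001 (5 days), and small subunit genes 0.010, 0.066 and 0.004. At 48 h 15 of 29 large and 7 of 14 small subunit genes were higher in all 3 experiments, beside 22.8% of all probe sets. The small subunit count includes the dim Rps4y2. These counts were made after quantile normalization only, and the count of the whole family fell with the other scalings. The 10 genes of high signal with a TOP tract at the annotated start had a median ratio of 0.08 at 48 h, from -0.04 to 0.24. The 24 without it had 0.04, from -0.10 to 0.20. This split hangs on the single base annotated as the start, and genes with a run across it, such as Rpl12 and Rpl4, count as without. It therefore cannot compare mRNAs with and without a TOP tract.

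**Figure D3:**
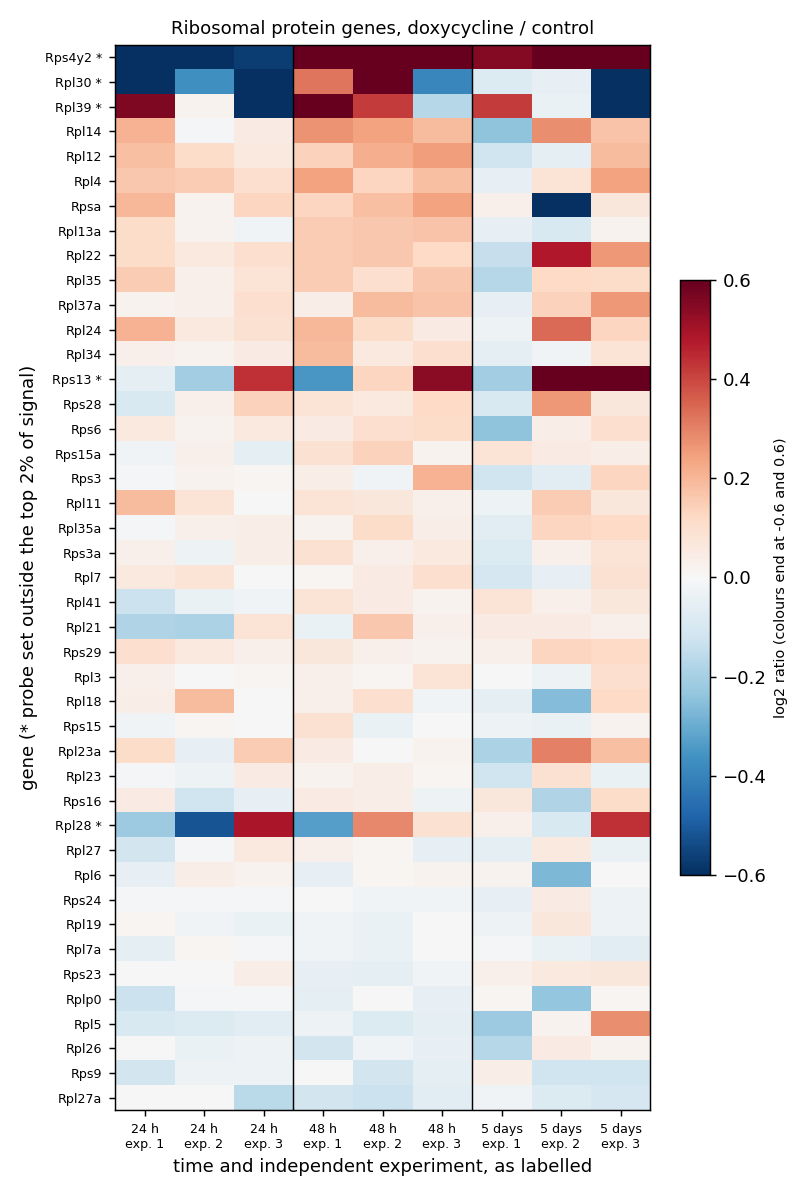
Log2 ratio of doxycycline to control in each experiment of the 3 times (columns) for the 43 genes (rows, ordered by the 48 h mean), red for higher and blue for lower, with colours ending at -0.6 and 0.6 and stars at the 5 dim probe sets. Ratios are quantile normalized. Pale red fills most of the 48 h columns, where 22 genes are higher in all 3 experiments, beside 22.8% of all probe sets. Strong colours at 24 h and 48 h belong to the starred rows.

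Rpl14, a large subunit protein, had the highest ratio at 48 h among the genes of high signal. Its signal was 9223, 9409 and 8752 with doxycycline, against 7644, 7942 and 7657 in control. The groups did not overlap, and the fold change was 1.18 (log2 0.24, 95% interval 0.05 to 0.42, limma adjusted p = 0.131). With the deposited scaling the 3 ratios were 0.22, 0.25 and 0.23 and limma's adjusted p was 0.141. The ratios were thus alike under both scalings, and the difference passed the test under neither. At 24 h its signal was 8280, 7942 and 7569 with doxycycline, against 7159, 7986 and 7288 in control, and the groups overlapped. A second Rpl14 probe set, with a mean signal of only 29.9, had ratios of -0.07 at 24 h and 1.78 at 48 h, and was not tested.

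Rpl12, which forms the base of the stalk that recruits the elongation factors, gave 17900, 17900 and 17420 with doxycycline at 48 h, against 16228, 15348 and 14655 in control. The doxycycline arrays were all above the control arrays, by a factor of 1.15 (log2 0.20, adjusted p = 0.172). With the deposited scaling the ratios were -0.02, 0.23 and 0.35. At 24 h it had 16583, 16638 and 16583 with doxycycline, against 14655, 15399 and 15917 in control, again without overlap (log2 0.12, adjusted p = 0.507). Rplp0, the protein to which the rest of the stalk is bound, went no way in common with it, at -0.06, 0 and -0.05 in the 3 experiments of 48 h.

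Rpl4, whose long loop lines the tunnel through which the new chain leaves, had 12706, 12593 and 12706 with doxycycline at 48 h, against 10793, 11482 and 11186 in control. This was a factor of 1.14 with no overlap (log2 0.18, adjusted p = 0.202). At 24 h it had 11252, 11916 and 11888 with doxycycline, against 10065, 10706 and 11124 in control. The groups did not overlap there either, and its log2 ratio of 0.14 was the highest of the family at that time. At 5 days, as labelled, it had 11535, 12525 and 12544 with doxycycline, against 11916, 11834 and 10632 in control, with overlap.

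Rpsa, a small subunit protein also known as the laminin receptor, had 11278, 10873 and 10632 with doxycycline at 48 h, against 10322, 9620 and 8997 in control, without overlap (log2 0.18, adjusted p = 0.208). Its other probe sets, at mean signals of 6694 and 1738, had ratios of 0.21 and 0.37. At 24 h the ratio was 0.12, with 9898, 10516 and 9346 with doxycycline, against 8633, 10399 and 8530 in control, which overlapped. At 5 days its lowest array was the doxycycline array of experiment 2, the one with the high 3′/5′ ratio. It read 7244 there, against 11748 in the control array of that experiment, while experiments 1 and 3 differed by 0.03 and 0.07. Without experiment 2 the mean ratio was 0.05, where it was -0.20 with it.

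**Figure D4:**
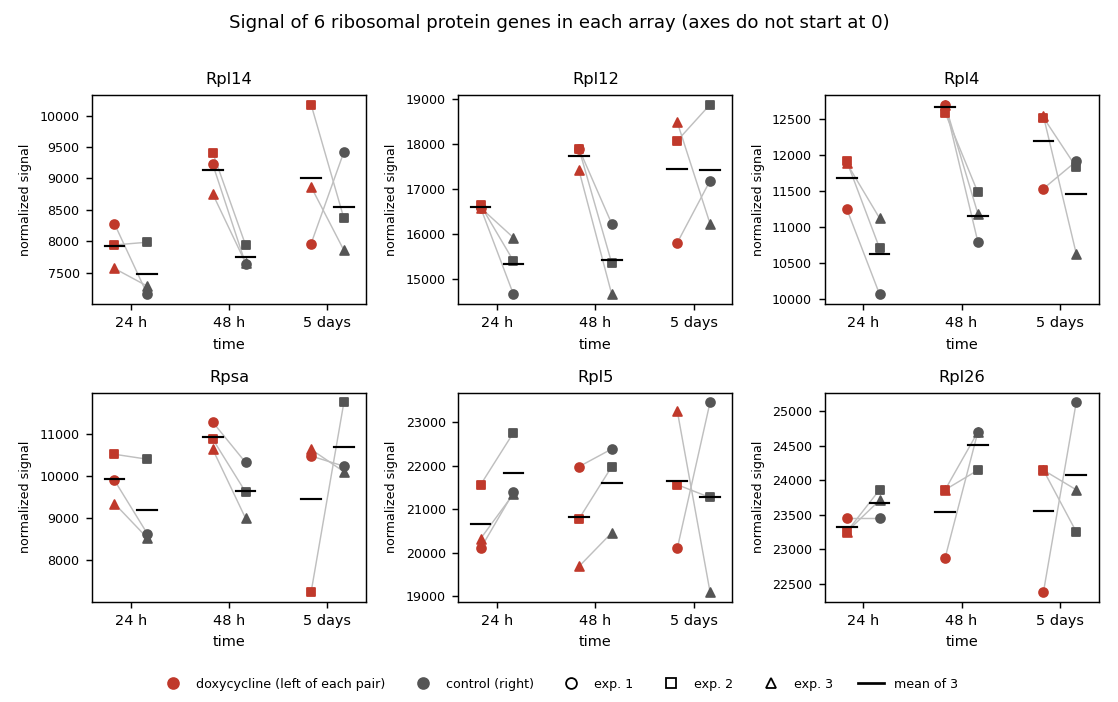
Quantile-normalized signal (y axis, not starting at 0) of Rpl14, Rpl12, Rpl4, Rpsa, Rpl5 and Rpl26 on each array by time (x axis), doxycycline in red to the left of control in grey, with lines joining the arrays of an experiment and bars for the mean of 3. At 48 h the red points of Rpl14, Rpl12, Rpl4 and Rpsa lie above all grey points, those of Rpl26 below, those of Rpl5 overlap, and at 5 days all 6 genes overlap.

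In all, the doxycycline arrays of 48 h stood above the control arrays without overlap in 14 genes and below them in 2, where 11.3% and 10.8% of all probe sets did so. At 24 h the counts were 4 and 3, beside 5.03% and 3.72%, and at 5 days 0 and 0, beside 3.73% and 2.76%. The 3 below at 24 h were Rpl41 and the dim Rpl30 and Rps4y2, which were under the filter that the shares apply. The 14 of 48 h were Rpl4, Rpl12, Rpl13a, Rpl14, Rpl22, Rpl24, Rpl34, Rpl35, Rpl41, Rps3a, Rps6, Rps28, Rps29 and Rpsa, with log2 ratios between 0.04 and 0.24. Rps6, the substrate of the S6 kinases, had 15465, 15005 and 15399 with doxycycline, against 14912, 14046 and 14239 in control (log2 0.09, adjusted p = 0.493). None of the 14 passed the adjusted test. With the deposited scaling 2 genes, Rpl14 and Rpsa, stood above control without overlap and 0 below, beside 10.6% and 11.1% of all probe sets. With median centring 5 genes stood above, Rpl4, Rpl12, Rpl14, Rpl24 and Rpsa, and 0 below, beside 10.3% and 7.97%.

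At the other end of the 48 h values were Rpl27a, Rpl26, Rps9 and Rpl5. Rpl27a, a large subunit protein, had 20674, 20203 and 20961 with doxycycline, against 22278, 22128 and 21973 in control, below it without overlap (log2 -0.10, adjusted p = 0.423). For Rpl26, which lies at the exit of the tunnel beside the translocon and is the main target of the modifier UFM1, signals were 22875, 23863 and 23863 with doxycycline, against 24703, 24148 and 24703 in control. The doxycycline arrays were below the control arrays without overlap, by a mean log2 ratio of -0.06 (adjusted p = 0.654). Rps9, at the site where mRNA enters, had a ratio of -0.06, and Rpl5 had -0.05.

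Rpl5 and Rpl11 bind the 5S rRNA, and unassembled they can bind the p53 ligase Mdm2. Rpl5 had 20096, 21559 and 20322 with doxycycline at 24 h, against 21382, 22751 and 21345 in control, lower in each of the 3 experiments by 0.07 to 0.09 log2 units, though the groups overlapped. At 48 h it had 21973, 20773 and 19682 with doxycycline, against 22379, 21973 and 20456 in control. Rpl11 had 17537, 15399 and 14811 with doxycycline at 48 h, against 16583, 14715 and 14482 in control, slightly higher in each experiment (log2 0.06, adjusted p = 0.643). Neither partner passed the test at any time.

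Of the genes whose proteins ring the tunnel exit, where nascent chains meet the signal recognition particle and the translocon, 6 of 8 listed were among the 43. Rpl19, Rpl22, Rpl23a, Rpl26, Rpl35 and Rpl39 had ratios at 48 h of -0.02, 0.14, 0.02, -0.06, 0.14 and 0.30, and 0 of the 6 passed in either direction at any time. Rpl22 had 10378, 10681 and 9993 with doxycycline at 48 h, against 9360, 9569 and 9203 in control, and Rpl35 had 16638, 16854 and 16854 with doxycycline, against 15005, 15696 and 15066 in control. Both were above control without overlap, with adjusted p = 0.282 for Rpl22 and 0.297 for Rpl35. Rpl39, read by a dim probe set, had 168, 115 and 92.6 with doxycycline, against 108, 85.8 and 104 in control, and overlapped. At the mRNA entry site Rps3, part of the helicase there, had ratios of 0.01 (24 h), 0.07 (48 h) and -0.02 (5 days).

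The dim probe sets gave the widest ratios of the family and the least certain ones. Rps4y2, of the Rps4 family of small subunit proteins, had 25.3, 23.3 and 22.4 with doxycycline at 24 h, against 53.9, 50.5 and 33.2 in control. At 48 h it had 65.1, 79.4 and 16.6 with doxycycline, against 14.4, 30.3 and 8.45 in control. Doxycycline arrays were thus lower in each experiment at 24 h (log2 -0.92) and higher in each at 48 h (log2 1.51). Tested with no filter on low signal, the adjusted p was 0.579 at 24 h and 0.37 at 48 h. Adding 32 to every signal before the log2 brought the ratios to -0.47 and 0.72.

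Rpl30, a large subunit protein, had 33.8, 41.5 and 28.7 with doxycycline at 24 h, against 52.5, 53.6 and 66.0 in control (log2 -0.74, adjusted p = 0.626 with no filter). Its ratio at 48 h was 0.39, from experiments at 0.32, 1.25 and -0.39. Rps13, a small subunit protein, had ratios of 0.06 (24 h), 0.10 (48 h) and 0.55 (5 days), and at 5 days the value of 1.27 in experiment 2 came from the array with the high 3′/5′ ratio. Without that experiment its 5-day mean was 0.20. The dim Rpl39 had a 24 h ratio of -0.15, from 0.56, 0.02 and -1.03. In Rpl39 and Rps13 the SD between experiments exceeded the mean ratio at each time.

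Apart from the dim probe sets, the values at 24 h lay between -0.10 and 0.14. Rpl24, which bridges to the small subunit, had 16854, 16690 and 15978 with doxycycline, against 14526, 15978 and 15005 in control (log2 0.12, adjusted p = 0.501). The lowest was Rpl21, a large subunit protein, with 12350, 12656 and 16854 with doxycycline, against 13994, 14388 and 15978 in control, lower in experiments 1 and 2 and higher in experiment 3 (log2 -0.10, adjusted p = 0.659).

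Whether the doxycycline effect differed between 48 h and 24 h was tested in a fit of the 12 arrays. The median difference, 48 h minus 24 h, was 0.031 log2 units, and 0 of the 40 genes passed in either direction (smallest adjusted p = 0.804), beside 0% of all probe sets. No ribosomal protein gene had an unadjusted p under 0.05, and 520 probe sets with a larger and 516 with a smaller effect at 48 h did. Rpl14 had a difference of 0.15 and Rpl12 one of 0.09.

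At 5 days the ratios of the family were more scattered, as labelled. Over the 38 genes of high signal the SD of the log2 ratios within experiment 2 was 0.198, against 0.086 in experiment 1 and 0.097 in experiment 3. Rpl22 had 11327, 11943 and 10475 with doxycycline, against 12443, 8564 and 8767 in control, lower in experiment 1 and higher in experiments 2 and 3 (log2 0.20, adjusted p = 0.935), and Rpl24 had ratios of -0.03, 0.34 and 0.13. Rpl6, a large subunit protein, had 21082, 18422 and 22379 with doxycycline, against 20832, 22229 and 22379 in control. Its ratios were 0.02, -0.27 and 0, so mainly experiment 2 held a difference. Without experiment 1 the family had 21 genes higher and 5 lower in both remaining experiments, without experiment 2 it had 10 and 7, and with the labels of experiment 1 exchanged 15 were higher in all 3. Shares over all probe sets were not computed for these settings, so the counts are not read as a trait of the family. The family median was 0.037, 0.008 and 0.045 in that order, beside 0.044, 0.005 and 0.019 for all probe sets. The adjusted test called 0 genes in each setting, and 0 of all probe sets, so this count says nothing particular to the family.

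Genes that work with the family were read from lists. Of 40 genes of ribosome biogenesis all 40 were tested and 0 rose and 0 fell at any time, with a median ratio of 0.072 at 48 h. Polr1b, a core subunit of RNA polymerase I, had ratios of 0.51, 0.25 and 0.43 at 48 h (adjusted p = 0.0762), and Nop2, an rRNA methyltransferase, 0.23, 0.54 and 0.33 (adjusted p = 0.0937). At 48 h 17 of the 40 were higher in all 3 experiments and 2 lower, as with the deposited scaling, and 12 and 1 with median centring. Of all probe sets 22.8% were higher and 25.4% lower after quantile normalization. The shares were 21.8% and 26.1% with the deposited scaling and 22.7% and 23.1% with median centring. Of other mRNAs of the TOP class, 10 of the 11 found were tested and 0 passed. At 48 h 7 of the 11 were higher in all 3 experiments, among them Eef2, the translocation factor of elongation, at 0.29, 0.07 and 0.04. With the deposited scaling 3 of the 11 were, and with median centring 4, beside the same shares of all probe sets. Vim, of the same list, was dim, at a mean signal of 14.5. Rack1, a scaffold on the small subunit that the symbol rule leaves out, had ratios of 0.01 (24 h), 0.01 (48 h) and 0 (5 days).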

How the data were processed

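The authors hybridized clone #4S2 RNA to 18 Affymetrix rat genome arrays and deposited scaled linear intensities, with a 2% trimmed mean of 500.14 to 500.17 per array. How they were computed was not given in the sources used here. Arrays, with 57 control probe sets left out, were quantile normalized, then floored at 5.99 (10th percentile) and converted to log2. The brighter 15521 of 31042 probe sets, by mean log2 signal, were tested with limma 3.58.1 (R 4.3.3), on the 6 arrays of a time with same-numbered arrays as blocks, adjusted by Benjamini-Hochberg (0.05). Paired arrays deviated from their group means together, with correlations of 0.667, 0.484 and 0.662 (24 h), 0.578, 0.256 and 0.359 (48 h) and 0.149, 0.142 and 0.109 (5 days). The number of arrays limits the precision. Intervals are limma's 95% intervals.

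Members and lists were chosen with earlier results of these data known. Genes named are the 4 highest and 4 lowest at each time, the 3 of highest and 3 of lowest signal, those of the role groups and, per list, the 2 of largest absolute ratio at 48 h. Rpl3, Rpl7, Rpl13a, Rpl28, Rpl34, Rpl37a, Rpl41, Rps3a, Rps6, Rps24, Rps28 and Rps29 were named after their values were seen. Of the 43 genes, 41 matched RefSeq by gene number. Per-gene symbols otherwise follow the platform annotation, and 9780 probe sets are unnamed there.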

Additional observations from a re-analysis of the deposited data

Results flagged for a closer look

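Rpl41, the smallest protein of the large subunit, was lower with doxycycline in all 3 experiments at 24 h and higher in all 3 at 48 h and at 5 days. Its ratio at 48 h exceeded that at 24 h by 0.12 log2 units, which limma did not call (adjusted p = 0.824), and its ratio at 5 days also exceeded that at 24 h by 0.12, a difference that was not tested. Rps23, a small subunit protein of the decoding site, was lower in all 3 experiments at 48 h and higher in all 3 at 5 days, a difference of 0.10 that was not tested. Rps4y2, read by a dim probe set, was lower in all 3 experiments at 24 h and higher in all 3 at the later times, so that its ratio at 48 h exceeded that at 24 h by 2.44 log2 units and its ratio at 5 days by 1.55, and neither difference was tested. Values of 5 days are as labelled.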

How the results depend on the processing

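No alternative called a ribosomal protein gene at the adjusted threshold, for the effects at the 3 times or for their difference between 48 h and 24 h, and this includes the fit with no replicate block, where the counts at the 3 times were 0 higher and 0 lower. Without that pairing all probe sets gave 208 higher and 67 lower at 48 h, against 361 and 185 with it. The methods' t-test gave 3, 13 and 0 genes higher and 0, 1 and 0 lower at an unadjusted 0.05, beside 3.13%, 8.14% and 1.15% of all probe sets higher and 1.89%, 6.97% and 0.683% lower, and 0 genes after Benjamini-Hochberg. At 48 h the fit of 12 arrays gave 876 and 734 calls over all probe sets, and the fit of 18 arrays 0 and 0. With no filter on low signal, and without experiment 1, 0 of all probe sets were called at any time. The fit with no replicate block and the t-test also called 0 at 24 h and at 5 days. A count of 0 genes there says nothing about the family. At 48 h the smallest adjusted p of the family was 0.075 in limma's fit of 12 arrays. It was 0.0792 with limma on means over a gene's probe sets, and 0.0951 with the t-test.

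With the deposited scaling the median ratio was -0.021 (24 h), 0.026 (48 h) and -0.064 (5 days), with 2, 7 and 1 genes higher in every pair and 4, 1 and 9 lower. With median centring it was -0.012, 0.037 and 0.193, with 2 and 11 genes higher at 24 h and 48 h and 3, 1 and 1 lower at the 3 times. Of all probe sets 19% and 22.7% were then higher at 24 h and 48 h, and 18.3%, 23.1% and 4.51% lower at the 3 times. Centring moved the median of all probe sets at 5 days to 0.245, so the family was 0.051 below it. It brought Rpsa to 0.09 and Rpl6 to 0.05 at 5 days. Leaving out an experiment gave medians of 0 to 0.017 at 24 h, 0.053 to 0.072 at 48 h and -0.016 to 0.037 at 5 days. Genes higher in both remaining pairs numbered 14 to 15, 24 to 27 and 6 to 21, and genes lower 10 to 12, 5 to 7 and 5 to 10, where fewer pairs make such counts larger by construction. The share over all probe sets was not computed for these counts. Over the experiments left out, Rpl39 ran from -0.50 to 0.29 at 24 h and from -0.54 to 0.19 at 5 days, where experiment 3 set its sign. At 5 days Rpsa ran from -0.33 to 0.05 and Rpl6 from -0.14 to 0.01, where experiment 2 did. With the labels of experiment 1 exchanged, 15 genes were higher in every pair at 5 days, again with no share computed over all probe sets. The 33 probe sets shared with copies, an alternative chosen after seeing the data, gave a median of 0.029 at 24 h. In all 3 pairs 10 of them were higher and 0 lower at 24 h, beside 17.8% and 20.3% of all probe sets. At 48 h 21 were higher and 1 lower, beside 22.8% and 25.4%, and at 5 days 3 and 3, beside 13.6% and 9.84%. The causes were not tested. Signal near the top of the scale limits these readings, and the 5 dim probe sets lie close to background.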

Other observations

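The 33 ribosomal protein probe sets that the annotation shares with pseudogenes or copies, kept apart above, had median log2 ratios of 0.029 (24 h), 0.052 (48 h) and -0.003 (5 days). At 48 h 21 of the 33 were higher in all 3 experiments and 1 was lower, beside 22.8% and 25.4% of all probe sets, while the deposited scaling gave 7 and 1 and median centring 11 and 1, and 0 passed the adjusted test at any time (limma, smallest adjusted p = 0.0885 at 48 h).

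Of the paralogs marked -like, 3 of 7 listed were on the array with a probe set of their own. Rps27l, a copy of Rps27 known as a p53 target, had ratios of 0.25, 0.29 and 0.10 at 48 h (adjusted p = 0.188). Rpl3l, which in mammals is expressed in muscle, was dim at a mean signal of 36.5, with ratios of -2.04, -0.13 and -0.38. A second Rpl3 probe set, at a mean signal of 361, had ratios of -0.75 (24 h), 0.97 (48 h) and -0.30 (5 days), where the Rpl3 probe set used above had 0.01, 0.04 and 0.02. Second probe sets of Rps24 and Rpl7, at mean signals of 490 and 421, had 0.19, 0.33 and 0.19, and 0.17, 0.13 and -0.07 by time.

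Pairs of the genes of high signal were compared over the 18 quantile-normalized arrays. Their 703 pairwise Pearson correlations had a median of 0.14, from -0.81 to 0.93, and 63.6% were above 0. All share the same 18 arrays and their scaling. Quantile normalization gives equal ranks equal values on each array, so it can take out movement that the brightest probe sets share. By array the median log2 signal of the 43 genes ran from 13.71 to 14.3 as deposited and from 13.97 to 14.12 after normalization. Whether the genes move as a block can thus not be read from these correlations. The mean log2 signal of these 38 genes ran most like Mrps18b (r = 0.904), Gemin2 (0.902), Snhg4 (0.888), Mrpl15 (0.872) and Rcn1 (0.868) over the 18 arrays, and that of all 43 most like Miga1 (0.893), Tlcd4 (0.879), Slc16a1 (0.873), Sugt1 (0.846) and Taf4b (0.844), so the order depended on the 5 dim probe sets.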
